A study of Rattus norvegicus with 18 samples.

Results

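Keratins and keratin-associated proteins were taken as 1 gene group and followed through oral carcinogenesis in the rat. Every probe set of the array annotation that names a single gene whose symbol is Krt with a digit, or Krtap, was a candidate, and where a gene had several, the probe set with the highest mean log2 signal over the 18 samples was kept. This gave 29 genes of the 14217 named on the array, from 31 probe sets, and 3 further keratin probe sets that name several genes were left out. They were 14 type I keratins, 11 type II keratins and 4 keratin-associated proteins, in these classes: 5 simple keratins, 3 basal, 2 stress, 8 differentiation and 6 hair keratins, the 4 keratin-associated proteins, and Krt23, which was kept apart.

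The samples were tongue tissue of male Sprague Dawley rats. Controls drank distilled water, and the treated animals drank water with 0.002% 4-nitroquinoline-1-oxide (4NQO), a carcinogen that damages DNA, and gave dysplasia or squamous cell carcinoma (SCC) between weeks 14 and 22. The sources used here do not give the age of the rats. Dispase split the epithelial sheet from the connective tissue, which was digested with collagenase. The cells that stuck to plastic within a short time were taken as fibroblasts, so each fraction was defined by its preparation and not by a sort. The paper reports both fractions as pure, with representative images of staining for E-cadherin, pan keratin and vimentin. This made 6 groups of 3 arrays, normal, dysplasia and SCC for epithelia and for fibroblasts, and each sample pooled tissue of 3 rats. It is not stated that the 3 samples of a group are separate sets of rats, so a p-value compares a change with the spread of these pools, part of which may be technical. The small number of arrays limits the precision. The comparisons ask which keratins the epithelia carried at each stage, and what the same probe sets read in the fibroblasts beneath.

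Keratins are the intermediate filaments of epithelial cells. A type I and a type II chain pair to form the filament, and the pair in use tells the kind of epithelium and how far a cell has matured: Krt8 with Krt18 in simple epithelia, Krt5 with Krt14 in the basal layer of stratified epithelia, Krt4 with Krt13 in the upper layers of non-cornified mucosa, and Krt1 with Krt10 in cornified epithelia. Krt6 and Krt17 are known to rise in wounded or hyperproliferative epithelium. Hair keratins, with keratin-associated proteins as the matrix around their filaments, build hair and nail, and they are also known from the horny filiform papillae on the back of the tongue.

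Several facts of the arrays touch the keratin values. The median log2 signal of the arrays ran from 6.53 to 6.86 and the highest from 14.14 to 14.39. In normal epithelia 6 members (Krt4, Krt6c, Krt13, Krt14, Krt24 and Krt36) lay within 0.5 of that highest signal, so a rise in them, or a fall from that level, could be understated. The fibroblast samples read high for epithelial markers: 14 of 17 listed epithelial markers that are not keratins were measured, and their mean log2 signal was 11.90 to 12.15 in the epithelia, 9.10 to 11.09 in normal, 10.61 to 11.33 in dysplasia and 10.88 to 11.64 in SCC fibroblasts. Cdh1, the epithelial cadherin, had a mean of 12.77 in normal epithelia and still 10.98 in normal fibroblasts. These are RNA signals, while the paper's purity check stained protein, and how the 2 measures relate was not tested. The third fibroblast sample was the lowest of its stage for these markers, at 9.10, 10.61 and 10.88, and stood apart from the others of its stage. All 14 fibroblast markers were measured, with a mean of 12.52, 11.80 and 11.73 in normal, dysplasia and SCC fibroblasts, against 6.79, 7.13 and 9.22 in the epithelia, where SCC epithelia 2 reached 11.21. The values carry no detection call, so none of the markers can be called absent.

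**Figure D1:**
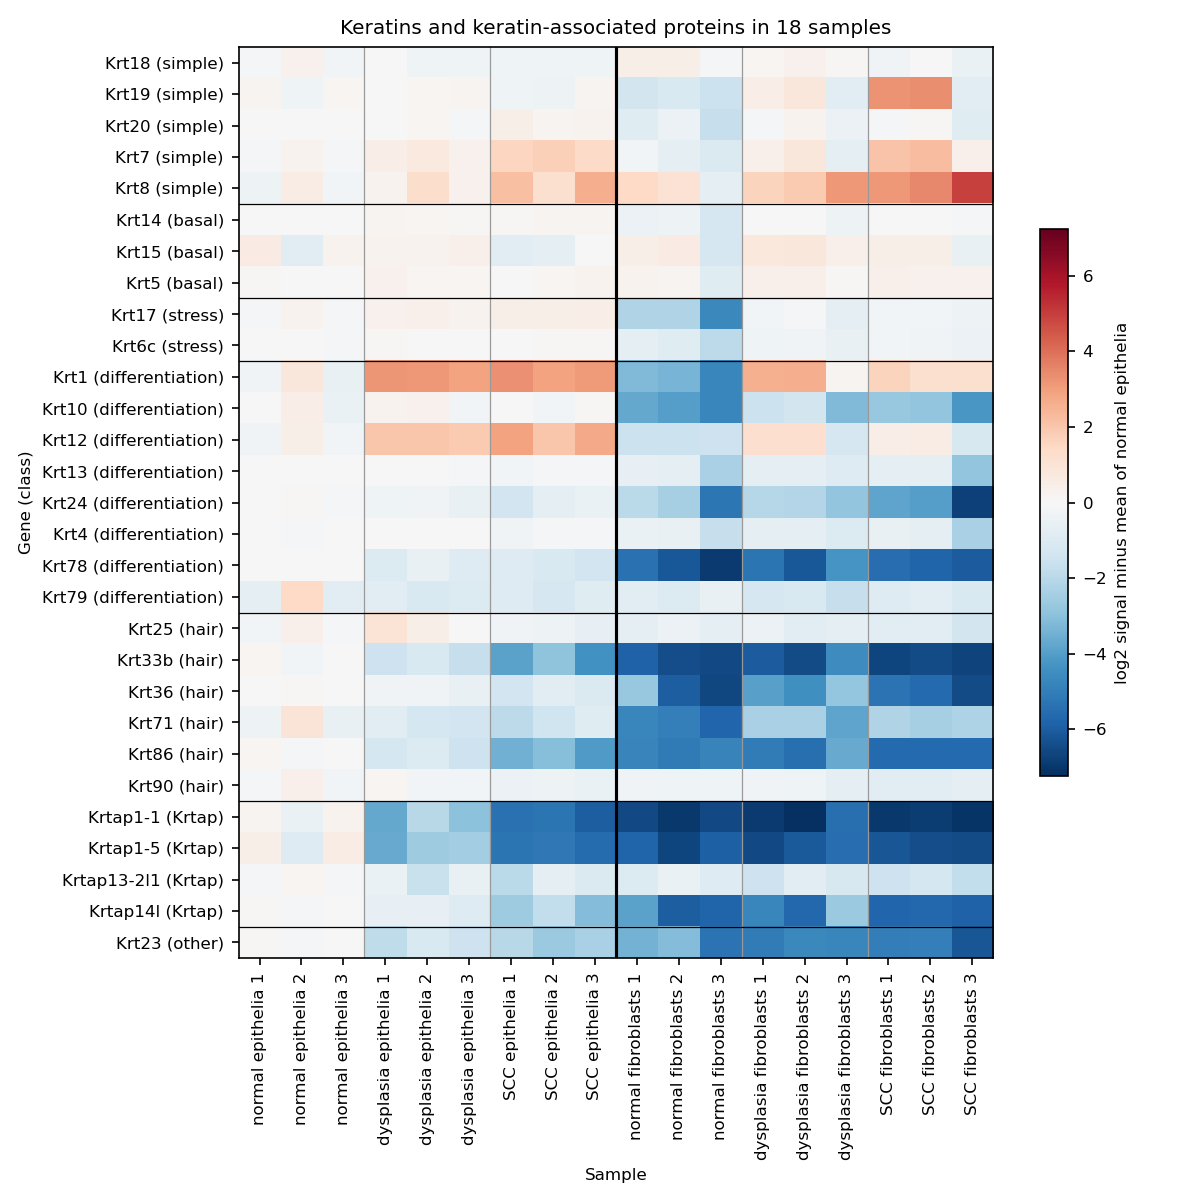
Log2 signal of the 29 members in the 18 samples, shown as the difference from the mean of normal epithelia for each gene (colour scale, log2 units); genes are in rows by class and samples in columns by group. The hair keratins Krt33b and Krt86 and 3 of the keratin-associated proteins darken to blue from left to right across the epithelia, Krt1 and Krt12 turn red at dysplasia, and the basal keratins stay near 0.

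In normal tissue most keratins read higher in epithelia than in fibroblasts. A limma fit of all 18 arrays, with a call at a Benjamini-Hochberg adjusted p under 0.05 over all 31042 probe sets, called 21 of 29 members higher in normal epithelia (35.7% of all probe sets were higher) and 0 lower (27.7%; 0 at an unadjusted p under 0.05). The members' median difference was 1.32 on the log2 scale, against 0.15 over all probe sets. The 4 keratin-associated proteins had a median of 5.67 and the hair keratins one of 5, with 5 of 6 called. Of 8 differentiation keratins 7 were higher, with a median of 2.35. The largest difference was that of Krtap1-1, at 6.66 (standard error 0.43, 101-fold, adjusted p = 8.06e-09), followed by Krt33b at 6.26 and Krt78 at 6.17. The basal keratins Krt5 and Krt15 differed by 0.14 and 0.08 (adjusted p = 0.587 and 0.876, groups overlapping), and Krt14 was called higher by only 0.67 (adjusted p = 0.00386). The simple keratins Krt8 and Krt18 stood at -0.60 and -0.24 and were not called. The call of Krt4, at 0.90 (adjusted p = 0.0479), was kept with only 5 of the 18 arrays left out in turn.

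Most hair keratins and all keratin-associated proteins were lower in SCC than in normal epithelia. In SCC against normal epithelia 4 of 6 hair keratins and 4 of 4 keratin-associated proteins fell and none rose, with medians of -1.23 and -3.92 on the log2 scale against -0.09 over all probe sets. Krt90 was counted as a hair keratin by its symbol number alone, and without it the hair keratins gave 4 of 5 lower and a median of -1.39. Over the whole array 12.6% of probe sets were higher and 17.3% lower in this comparison, and among the 29 members 5 were higher and 11 lower, with a median of -0.39. In bulk samples, fewer cells of a type and less RNA per cell cannot be told apart.

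Krtap1-1 fell furthest of all members. This cysteine-rich protein of the hair matrix had log2 signals of 11.76, 11.05 and 11.82 in normal, 7.85, 9.52 and 8.59 in dysplasia and 6.12, 6.26 and 5.56 in SCC epithelia. The 3 groups did not overlap, and each SCC sample lay more than 1 log2 unit below every dysplasia sample. It fell by 2.89 from normal to dysplasia (standard error 0.40, adjusted p = 0.00416) and fell by 5.57 from normal to SCC (95% interval -6.47 to -4.66, 47.4-fold, adjusted p = 0.000135). Krtap1-5, from the same family, read 11.44, 10.09 and 11.56 in normal, 7.36, 8.45 and 8.54 in dysplasia and 5.74, 5.86 and 5.48 in SCC epithelia. Again the stages did not overlap. Its change was -2.92 at dysplasia (adjusted p = 0.00467) and -5.34 at SCC (40.4-fold, adjusted p = 0.000151). The probe sets of Krtap1-1 and Krtap1-5 cite the same sequence record and the genes are near copies, so whether each reads its own transcript is uncertain.

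The other keratin-associated proteins moved less. Krtap14l gave 13.61, 13.45 and 13.52 in normal, 12.92, 12.93 and 12.60 in dysplasia and 10.94, 11.72 and 10.40 in SCC epithelia, a stepwise order with no overlap. Krtap14l fell by 2.51 in SCC (standard error 0.28, 5.68-fold, adjusted p = 0.000549), while the value at dysplasia was -0.71 (adjusted p = 0.123). Krtap13-2l1 was dim in every sample, with 3.98, 4.24 and 4.01 in normal, 3.60, 2.48 and 3.52 in dysplasia and 2.11, 3.38 and 3.05 in SCC epithelia. Its SCC samples lay below all normal samples and overlapped the dysplasia samples. The change in SCC was -1.23 (adjusted p = 0.0334), and that call was kept with 4 of the 9 arrays left out in turn.

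Among the hair keratins, Krt33b, a type I chain of the hair cortex, had log2 signals of 13.20, 12.85 and 13.10 in normal, 11.57, 11.95 and 11.40 in dysplasia and 9.20, 10.16 and 8.67 in SCC epithelia. All dysplasia samples lay below all normal samples and above all SCC samples. It fell by 3.71 in SCC (95% interval -4.45 to -2.96, 13.1-fold, adjusted p = 0.000223) and by 1.41 in dysplasia (adjusted p = 0.0247). Krt86, a type II chain of the same filaments, gave 13.33, 13.09 and 13.20 in normal, 11.95, 12.21 and 11.69 in dysplasia and 9.73, 10.13 and 9.13 in SCC epithelia. The stages were again fully separated. Krt86 fell by 1.26 from normal to dysplasia (adjusted p = 0.0122), by 2.29 from dysplasia to SCC (standard error 0.24, adjusted p = 0.0388) and by 3.54 over the whole course (11.7-fold, adjusted p = 0.000126). It was the only one of the 29 members called between dysplasia and SCC epithelia, where 0.0129% of all probe sets were higher and 0.0129% lower, and where Krt33b stood at -2.30, Krtap1-1 at -2.67 and Krtap14l at -1.80 (adjusted p = 0.075 for each). Leaving out 1 of the 9 epithelial arrays gave adjusted p-values of 0.0526 to 0.175 for Krt86 at this step in 7 cases and kept the call in 2. The members' median at this step was -0.24, against -0.03 over all probe sets.

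Krt36, a hair-type keratin known from tongue papillae, started near the top of the scale and read 14.06, 14.14 and 14.03 in normal, 13.85, 13.83 and 13.54 in dysplasia and 12.69, 13.31 and 13.01 in SCC epithelia. The order of stages was complete although the steps were small. Normal epithelia averaged 0.21 below the highest signal, so the size of a fall from there may be a lower limit. The measured fall in SCC was 1.07 (standard error 0.16, 2.11-fold, adjusted p = 0.00209), and at dysplasia the value was -0.34 (adjusted p = 0.2). Krt71, a type II keratin of the inner root sheath, gave 11.46, 12.76 and 11.27 in normal, 11.03, 10.57 and 10.42 in dysplasia and 9.96, 10.40 and 10.96 in SCC epithelia. Normal epithelia 2 stood above the other normal samples, and SCC epithelia 3 overlapped the dysplasia range. Krt71 fell by 1.39 in SCC (adjusted p = 0.0291), a call lost without normal epithelia 2 (0.0602), SCC epithelia 1 (0.0845) or SCC epithelia 2 (0.0633). Krt25 and Krt90 lay between 7.44 and 8.99 and between 6.28 and 7.08 in the epithelia and were not called at any stage (adjusted p = 0.266 and 0.0727 for SCC against normal).

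**Figure D2:**
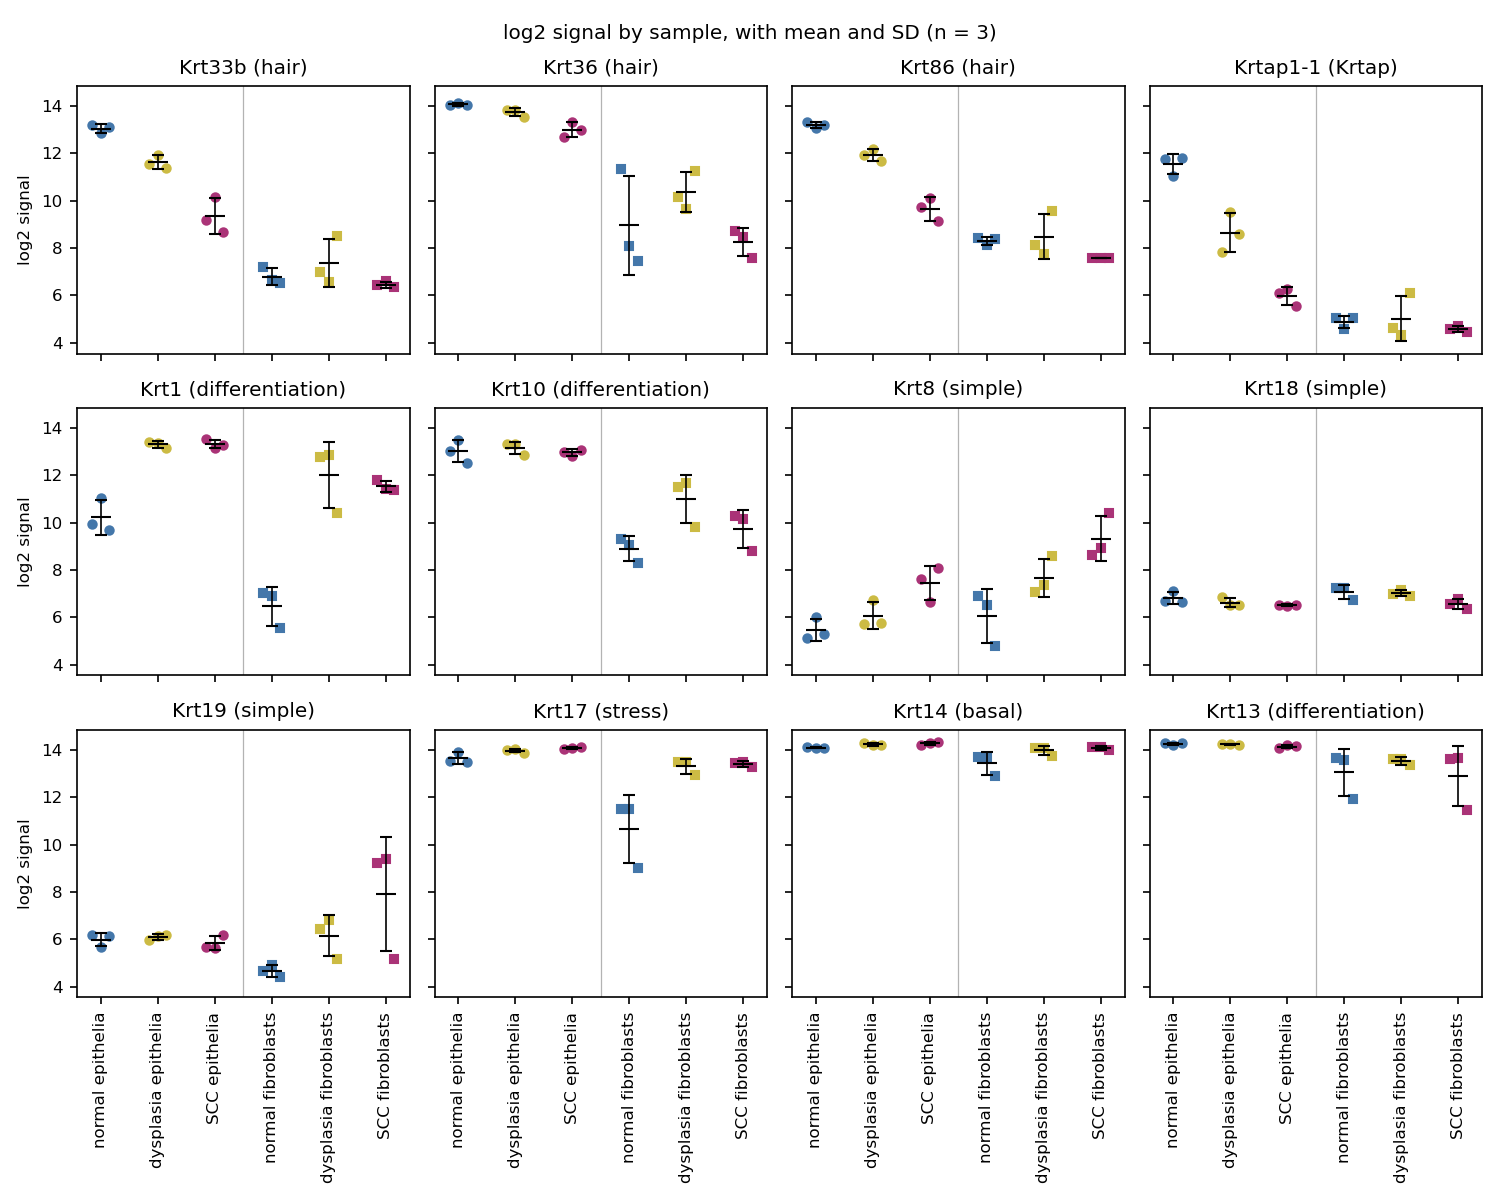
Log2 signal of 12 members in the 18 samples; points are samples (circles epithelia, squares fibroblasts), the long bar is the group mean and the whiskers the SD (n = 3). The top row steps down from normal through dysplasia to SCC epithelia without overlap, Krt1 jumps at dysplasia, and Krt14 and Krt13 stay flat in the epithelia.

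Counting over all members, 7 of 29 had stages that did not overlap at either step and were lower at both, namely the hair keratins Krt33b, Krt36 and Krt86, the keratin-associated proteins Krtap1-1, Krtap1-5 and Krtap14l, and Krt23. Over all probe sets 4.28% did so. Of the members, Krt7 alone was higher at both steps without overlap, against 3.15% of all probe sets.

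Stretches before the annotated starts of 5 of these genes are shown because each holds a TATA motif. The sequences are from RefSeq on the build GRCr8, which need not be the build behind the array, and run 5′ to 3′ along the sense strand, all 6 genes being on the minus strand. Capitals mark the letters TATAA, or TTATA where they match on the other strand. For Krt33b, Krtap1-1 and Krtap14l the annotated start is an ATG, so it may not be where transcription starts. Only 30 bases around the motif are given for them, with the motif at -90, -80 and -82 from that ATG. The other windows are the 100 bases before the annotated start. Krt12, which rose, is shown for comparison.
Krt36 chr10:85540404-85540503: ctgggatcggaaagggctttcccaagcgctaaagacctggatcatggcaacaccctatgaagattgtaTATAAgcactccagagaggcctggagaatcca
Krt33b chr10:85462147-85462176: actgacaggaTATAAagctccaaagaggac
Krtap1-1 chr10:85042539-85042568: ctatagggaataTATAAaaggccaggtgag
Krtap1-5 chr10:85039857-85039956: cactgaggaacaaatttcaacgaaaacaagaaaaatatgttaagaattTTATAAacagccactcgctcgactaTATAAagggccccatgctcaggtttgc
Krtap14l chr11:41572797-41572826: ctactgagagtaTATAAacccagctctcca
Krt12 chr10:84874266-84874365: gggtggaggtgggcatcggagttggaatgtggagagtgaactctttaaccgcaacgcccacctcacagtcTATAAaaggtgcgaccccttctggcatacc

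The RefSeq table held a start for 21 of the 29 members. In the 100 bases before the start, TATAA on either strand was found for 15 of these 21, or 71.4%, and in 3666 of 33469 windows of the same length over all genes of the table, or 11%. By class it was found for 4 of 4 keratin-associated proteins, 4 of 5 hair keratins, 4 of 6 differentiation keratins, 2 of 3 simple keratins, 1 of 1 stress keratin and 0 of 1 basal keratin. Krt23 held no match, and the table has no entry for Krt86. The annotated start is an ATG also for Krt24, counted with a match, and for Krt8 and Krt90, counted without one. The counts thus include windows that may not lie before the start of transcription. A match is a description of the letters, not of a working site.

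At the first step 2 of the 8 differentiation keratins were called higher and 1 lower, and 5 were not called (class median -0.03). In dysplasia against normal epithelia 8 of the 29 members were called, 2 higher and 6 lower, while 7% of all probe sets were higher and 7.54% lower. The members' median change was -0.03, against -0.06 over all probe sets. Both rises were differentiation keratins, and the falls were the differentiation keratin Krt78, the hair keratins Krt33b and Krt86, Krtap1-1, Krtap1-5 and Krt23.

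Krt1, the type II keratin of cornified epithelia, had log2 signals of 9.95, 11.05 and 9.67 in normal, 13.42, 13.35 and 13.16 in dysplasia and 13.52, 13.16 and 13.28 in SCC epithelia. Every dysplasia and SCC sample lay above every normal sample, and dysplasia and SCC overlapped. It rose by 3.09 at dysplasia (95% interval 2.39 to 3.78, 8.49-fold, adjusted p = 0.00198) and stood 3.09 above normal in SCC (8.52-fold, adjusted p = 0.000342). From dysplasia to SCC the difference was 0.01 with an interval of -0.69 to 0.70. Krt10, the type I partner of Krt1, was already high in normal epithelia and read 13.04, 13.51 and 12.54 in normal, 13.31, 13.32 and 12.85 in dysplasia and 13, 12.81 and 13.09 in SCC epithelia. All stages overlapped. Its change was 0.13 at dysplasia (interval -0.41 to 0.66, adjusted p = 0.755) and -0.06 in SCC (interval -0.60 to 0.47, adjusted p = 0.856).

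Krt12, best known as the type I keratin of the corneal epithelium, gave 7.91, 8.62 and 7.98 in normal, 10.17, 10.20 and 10.08 in dysplasia and 11.06, 10.17 and 10.89 in SCC epithelia. Normal samples were all below the treated ones, and SCC epithelia 2 lay within the dysplasia range. It rose by 1.98 at dysplasia (3.95-fold, adjusted p = 0.0033) and stood 2.54 above normal in SCC (5.81-fold, adjusted p = 0.000342). Krt78, a type II keratin of differentiating stratified epithelium, read 13.44, 13.50 and 13.42 in normal, 12.47, 12.89 and 12.53 in dysplasia and 12.52, 12.37 and 12.07 in SCC epithelia. The normal samples were close together and above all others. It fell by 0.83 at dysplasia (adjusted p = 0.0106) and by 1.14 in SCC (standard error 0.15, 2.2-fold, adjusted p = 0.0012). Krt24 had 13.79, 13.90 and 13.71 in normal, 13.48, 13.57 and 13.26 in dysplasia and 12.43, 13.14 and 13.32 in SCC epithelia. The SCC samples were below the normal ones and overlapped dysplasia. The fall of 0.84 in SCC (adjusted p = 0.0189) lost its call without normal epithelia 1 (0.052) or 2 (0.0608).

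Krt4 and Krt13, the pair of the upper layers of oral mucosa, held their signals near the top of the scale. Krt13 read 14.29, 14.22 and 14.29 in normal, 14.25, 14.24 and 14.21 in dysplasia and 14.09, 14.19 and 14.15 in SCC epithelia. Krt4 read 14.21, 14.09 and 14.20 in normal, 14.16, 14.14 and 14.13 in dysplasia and 13.91, 14.09 and 14 in SCC epithelia. The SCC samples were at or below the lowest normal sample for both, by small margins. The differences in SCC were -0.12 (interval -0.32 to 0.08) for Krt13 and -0.17 (interval -0.39 to 0.05) for Krt4, and neither was called (adjusted p = 0.336 and 0.211). Krt79 was dim, between 5.18 and 7.83 in the epithelia, with normal epithelia 2 alone above 6, and was not called (adjusted p = 0.15 in SCC). In SCC 2 of the 8 differentiation keratins were thus higher and 2 lower than normal, with a median of -0.15.

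Simple keratins, the chains of single-layered and glandular epithelia, gained 2 members in SCC. Krt7 had log2 signals of 5.74, 6.06 and 5.70 in normal, 6.34, 6.52 and 6.12 in dysplasia and 7.38, 7.53 and 7.24 in SCC epithelia. No stages overlapped. It rose by 1.55 in SCC (standard error 0.15, 2.93-fold, adjusted p = 0.000303), with 0.49 at dysplasia (adjusted p = 0.0589) and 1.06 from dysplasia to SCC (adjusted p = 0.075). Krt8, the type II keratin of simple epithelia, gave 5.11, 6 and 5.30 in normal, 5.70, 6.72 and 5.76 in dysplasia and 7.62, 6.64 and 8.07 in SCC epithelia. The SCC samples lay above all normal samples, but SCC epithelia 2, at 6.64, lay within the dysplasia range. Krt8 rose by 1.97 in SCC (interval 1.04 to 2.90, 3.93-fold, adjusted p = 0.00785).

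Krt18, the usual partner of Krt8, did not follow it, with 6.69, 7.13 and 6.65 in normal, 6.86, 6.50 and 6.51 in dysplasia and 6.54, 6.49 and 6.53 in SCC epithelia. The SCC samples were just below the normal ones. The difference in SCC was -0.31 with an interval of -0.66 to 0.05 (adjusted p = 0.168). Krt19, a type I keratin of simple and some stratified epithelia, read 6.18, 5.66 and 6.12 in normal, 5.97, 6.13 and 6.19 in dysplasia and 5.67, 5.64 and 6.16 in SCC epithelia, and its stages overlapped (-0.16 in SCC, adjusted p = 0.532). Krt20, of the gut lining, read 6.26, 6.20 and 6.25 in normal, 6.29, 6.37 and 6.09 in dysplasia and 6.66, 6.46 and 6.47 in SCC epithelia. Its SCC samples lay above all others by a small margin, and the difference of 0.30 was not called (adjusted p = 0.0759). Of 6 salivary gland markers measured out of 7, the list mean stayed between 3.61 and 5.05 in every sample. Among them Amy1a averaged 4.18, 5 and 4.56 in normal, dysplasia and SCC epithelia. In the fibroblasts of these stages Amy1a averaged 8.36, 8.32 and 7.3, where no other marker of the list averaged above 4.96. Neutrophil markers (6 of 7 measured) had a mean of 6.03 in normal and 8.69 in SCC epithelia, and macrophage markers (11 measured) one of 5.98 and 8.06. The part of these cells in the keratin values was not tested.

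Basal keratins were not called at any epithelial stage. Krt14 read 14.12, 14.09 and 14.09 in normal, 14.30, 14.22 and 14.19 in dysplasia and 14.20, 14.30 and 14.32 in SCC epithelia. Its partner Krt5 read 13.36, 13.28 and 13.25 in normal, 13.58, 13.42 and 13.44 in dysplasia and 13.30, 13.46 and 13.57 in SCC epithelia. Dysplasia and SCC overlapped for both, and the 9 epithelial samples of each lay close together. For SCC against normal the differences were 0.17 (interval -0.04 to 0.39, adjusted p = 0.185) for Krt14 and 0.15 (interval -0.10 to 0.39, adjusted p = 0.335) for Krt5. Krt15, a type I keratin of basal cells and of hair follicle stem cells, was less even, with 12.66, 11.22 and 12.29 in normal, 12.33, 12.30 and 12.42 in dysplasia and 11.30, 11.37 and 12.05 in SCC epithelia. Normal epithelia 2 and SCC epithelia 1 and 2 were the low samples, and normal and SCC overlapped (-0.49, adjusted p = 0.307). The class median was 0.19 at dysplasia and 0.15 in SCC.

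Of the stress keratins, Krt17 had 13.54, 13.93 and 13.49 in normal, 13.99, 14.04 and 13.89 in dysplasia and 14.05, 14.06 and 14.14 in SCC epithelia. SCC samples were above all others, and normal epithelia 2 reached into the dysplasia range. The rise of 0.43 in SCC (standard error 0.13, 1.34-fold, adjusted p = 0.0386) was small and its call was kept with 1 of the 9 arrays left out in turn (0.0512 to 0.125 in the others). Krt6c, once named Krt6a, has 3 probe sets that name it alone, and the brightest read 14.14, 14.19 and 14.08 in normal, 14.22, 14.16 and 14.14 in dysplasia and 14.17, 14.24 and 14.21 in SCC epithelia. These stages overlapped and the SCC difference was 0.07 (adjusted p = 0.601). The other probe sets gave 0.31 (adjusted p = 0.0819) and 0.78 (adjusted p = 0.0177), so the gene's call in SCC depends on the probe set.

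Krt23, a type I keratin, was lower at each stage than at the one before, with 12.23, 12.08 and 12.20 in normal, 10.32, 11.08 and 10.67 in dysplasia and 10.15, 9.49 and 9.82 in SCC epithelia. No stages overlapped. It fell by 1.48 from normal to dysplasia (adjusted p = 0.00467) and fell by 2.35 from normal to SCC (standard error 0.21, 5.11-fold, adjusted p = 0.000237).

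**Figure D3:**
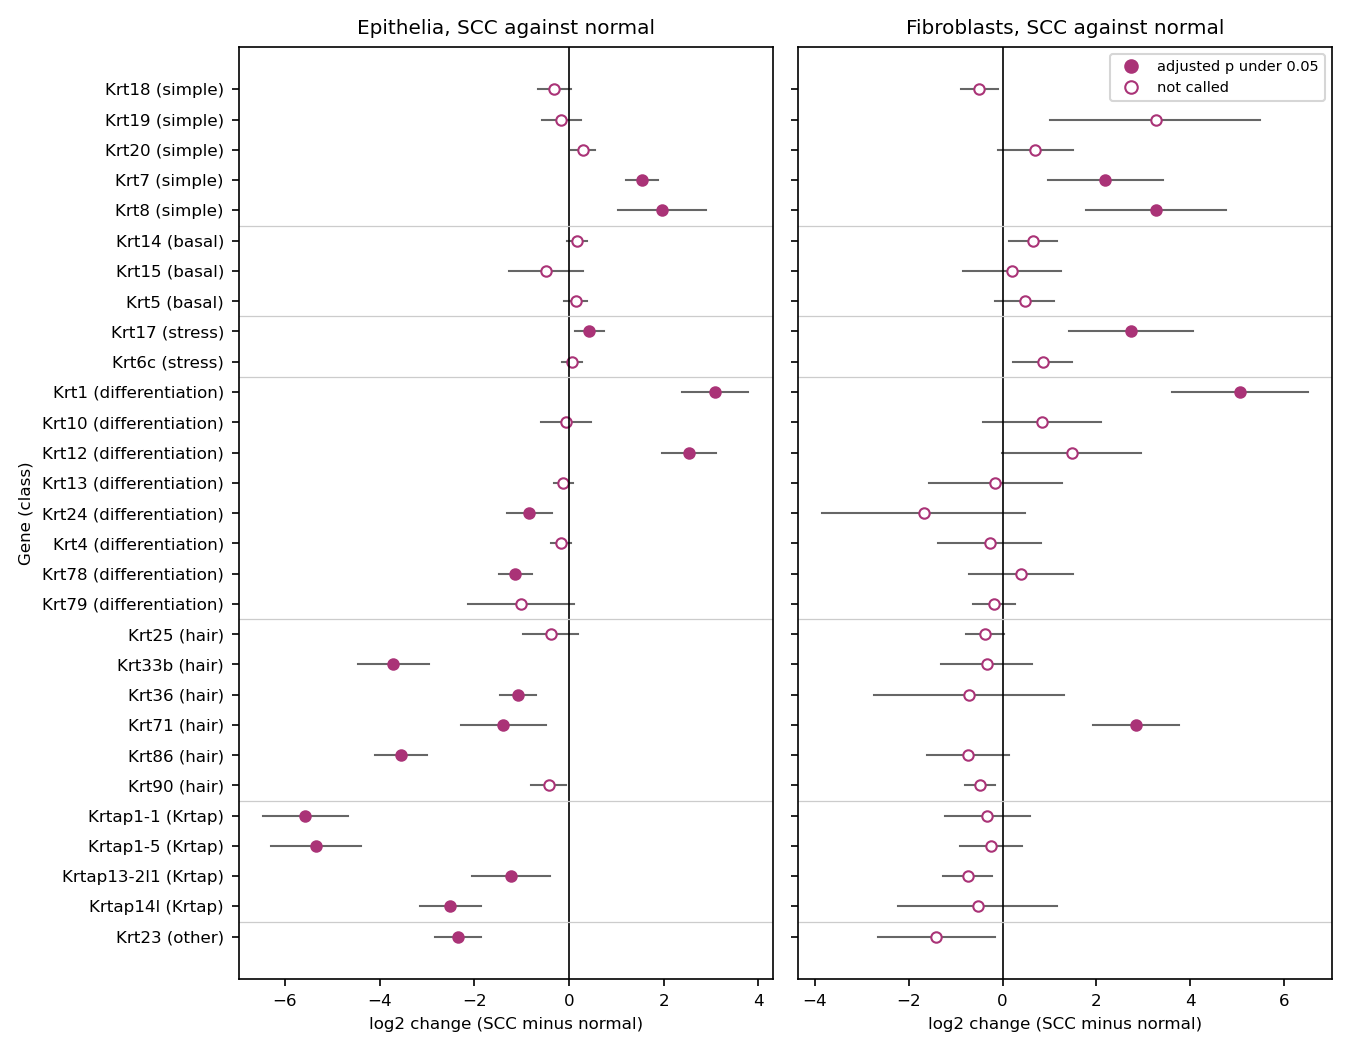
Change from normal to SCC of the 29 members in log2 units, in epithelia (left) and fibroblasts (right); points are limma estimates, bars their 95% intervals, and filled points have an adjusted p under 0.05. In epithelia the keratin-associated and hair members reach down to -5.57 and Krt1 up to 3.09, while in fibroblasts 5 members are filled, all above 0.

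Some of these calls rested on single arrays. At dysplasia, Krt78 and Krt86 lost theirs without dysplasia epithelia 3 (adjusted p = 0.0522 and 0.0566), leaving 5 members called, and Krt33b lost its call without normal epithelia 1, 2 or 3 (0.0789, 0.0548 and 0.069) and dysplasia epithelia 1 or 3 (0.0615 and 0.0971). Krt1, Krt12, Krtap1-1, Krtap1-5 and Krt23 kept their calls at dysplasia with each of the 9 arrays left out. In SCC these 5 did too, as did Krt7, Krt8, Krt33b, Krt36, Krt78, Krt86 and Krtap14l.

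In the fibroblast samples some keratin probe sets read high values as well and others low ones. In normal fibroblasts the mean log2 signal was 13.43 for Krt14 and 4.89 for Krtap1-1. At most 5 members were called between any fibroblast stages. In SCC against normal fibroblasts 5 of 29 members were higher (7.82% of all probe sets were higher) and 0 were lower (7.43%, and 4 at an unadjusted p under 0.05). They were the simple keratins Krt7 and Krt8, the stress keratin Krt17, Krt1 and Krt71. The 3′ minus 5′ log2 signal of the beta-actin control, a sign of RNA quality, was 1.14 to 1.26 in SCC fibroblasts, below the 1.51 to 2.02 of normal and the 1.59 to 2 of dysplasia fibroblasts, and its part in these values was not tested. In dysplasia against normal fibroblasts 1 of 29 was higher, Krt1 (0.116% of all probe sets were higher and 0.0548% lower). In SCC against dysplasia fibroblasts limma called 0 (1.52% higher and 0.322% lower over the array), with 2 members higher and 6 lower at an unadjusted p under 0.05. The methods' t-test after adjustment also called 0 there (0.409% higher and 0.106% lower over the array). Members' median changes were 0.73, -0.43 and -0.16 for dysplasia against normal, SCC against dysplasia and SCC against normal, against -0.04, -0.01 and -0.05 over all probe sets.

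Krt1 had log2 signals of 7.02, 6.88 and 5.53 in normal, 12.78, 12.85 and 10.40 in dysplasia and 11.81, 11.41 and 11.38 in SCC fibroblasts. All 6 samples of the treated rats lay above the normal ones. It rose by 5.53 at dysplasia (interval 4.09 to 6.98, 46.3-fold, adjusted p = 0.0162) and by 5.06 in SCC (33.3-fold, adjusted p = 0.00299). The dysplasia call was lost without normal fibroblasts 1 (0.0707) or 2 (0.072) and without dysplasia fibroblasts 1 (0.091) or 2 (0.0937). Krt10, its partner, read 9.33, 9.05 and 8.31 in normal, 11.49, 11.69 and 9.82 in dysplasia and 10.27, 10.15 and 8.80 in SCC fibroblasts. The dysplasia samples lay above the normal ones and the SCC samples overlapped both, with 2.11 for dysplasia (adjusted p = 0.144) and 0.84 for SCC (adjusted p = 0.314).

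Krt8 gave 6.92, 6.51 and 4.77 in normal, 7.07, 7.36 and 8.58 in dysplasia and 8.62, 8.94 and 10.43 in SCC fibroblasts. The stages did not overlap. The third sample of each stage carried the least of the epithelial markers. It had the highest Krt8 of its stage in dysplasia and SCC but the lowest in normal fibroblasts. Krt8 rose by 3.26 in SCC (standard error 0.66, 9.58-fold, adjusted p = 0.0166), a call lost without SCC fibroblasts 2 (0.0549). Krt18 read 7.22, 7.23 and 6.73 in normal, 6.98, 7.16 and 6.92 in dysplasia and 6.56, 6.79 and 6.37 in SCC fibroblasts, with SCC overlapping normal (-0.49, adjusted p = 0.091). Krt7 had 5.61, 5.18 and 4.79 in normal, 6.20, 6.67 and 5.11 in dysplasia and 7.89, 8.08 and 6.18 in SCC fibroblasts. The SCC samples lay above all normal samples, with the third well below the others. The rise of 2.19 (adjusted p = 0.0303) was kept with 4 of 9 arrays left out in turn (0.0599 to 0.115 in the others).

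Krt19 split the SCC fibroblasts, with 4.66, 4.91 and 4.41 in normal, 6.44, 6.83 and 5.16 in dysplasia and 9.23, 9.37 and 5.15 in SCC fibroblasts. SCC fibroblasts 1 and 2 were the highest of all 18 samples, and SCC fibroblasts 3 was level with the lowest dysplasia sample. The difference from normal, 3.26 (interval 1.02 to 5.49), was not called (adjusted p = 0.056). Krt20 read 5.38, 5.81 and 4.55 in normal, 6.13, 6.47 and 5.81 in dysplasia and 6.15, 6.31 and 5.38 in SCC fibroblasts, with overlap (0.70, adjusted p = 0.194). Krt17 gave 11.49, 11.50 and 8.99 in normal, 13.48, 13.51 and 12.95 in dysplasia and 13.46, 13.47 and 13.26 in SCC fibroblasts. All treated samples lay above the normal ones. It rose by 2.73 in SCC (6.66-fold, adjusted p = 0.019), a call lost without SCC fibroblasts 1 (0.0738) or 2 (0.0751). The brightest probe set of Krt6c read 13.46, 13.28 and 12.25 in normal, 13.84, 13.86 and 13.62 in dysplasia and 13.95, 13.91 and 13.70 in SCC fibroblasts, with a difference of 0.86 in SCC (adjusted p = 0.0686), and the dimmest one gave 3.67 (adjusted p = 0.00488).

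Krt71 was the 1 hair keratin that rose in fibroblasts, with 7.13, 6.91 and 6.07 in normal, 9.50, 9.48 and 8.04 in dysplasia and 9.64, 9.41 and 9.57 in SCC fibroblasts. Treated and normal samples did not overlap. The rise in SCC was 2.84 (standard error 0.40, 7.15-fold, adjusted p = 0.00501), and the call held with each of the 9 fibroblast arrays left out. The other hair members spread widely within stages. Krt36 read 11.36, 8.09 and 7.47 in normal, 10.17, 9.66 and 11.28 in dysplasia and 8.73, 8.46 and 7.60 in SCC fibroblasts, where normal fibroblasts 1 and dysplasia fibroblasts 3 were high. Krt33b read 7.19, 6.65 and 6.54 in normal, 7.01, 6.58 and 8.51 in dysplasia and 6.43, 6.59 and 6.35 in SCC fibroblasts. The cortex chain Krt86 read 8.44, 8.12 and 8.38 in normal, 8.15, 7.75 and 9.55 in dysplasia and 7.57, 7.58 and 7.60 in SCC fibroblasts. Dysplasia fibroblasts 3 was the highest fibroblast sample for Krt33b and Krt86. Krtap14l read 9.67, 7.56 and 7.73 in normal, 8.81, 7.84 and 10.85 in dysplasia and 7.81, 7.87 and 7.67 in SCC fibroblasts, with the same sample highest. Krtap1-1 had 5.03, 4.59 and 5.04 in normal, 4.63, 4.31 and 6.11 in dysplasia and 4.58, 4.69 and 4.44 in SCC fibroblasts. Krtap1-5 had 5.22, 4.37 and 5.13 in normal, 4.50, 4.93 and 5.52 in dysplasia and 4.83, 4.61 and 4.55 in SCC fibroblasts. For Krtap13-2l1 the signals were 3.10, 3.61 and 3.17 in normal, 2.60, 3.33 and 2.89 in dysplasia and 2.60, 2.79 and 2.27 in SCC fibroblasts. Normal and SCC samples overlapped for these members, except that Krt86 and Krtap13-2l1 were lower in every SCC sample than in any normal one, and the Krt86 of every SCC sample was below that of every dysplasia sample too. Within these members normal and SCC fibroblasts differed by -0.74 to -0.24, and none was called. Krt25, Krt79 and Krt90 lay between 6.66 and 7.58, between 4.72 and 5.87 and between 5.90 and 6.48.

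The basal keratins were not called between fibroblast stages. Krt14 had 13.70, 13.71 and 12.88 in normal, 14.10, 14.10 and 13.75 in dysplasia and 14.13, 14.12 and 13.98 in SCC fibroblasts. Krt5 had 13.55, 13.50 and 12.40 in normal, 13.67, 13.69 and 13.37 in dysplasia and 13.68, 13.58 and 13.60 in SCC fibroblasts. Krt15 had 12.47, 12.63 and 10.82 in normal, 12.84, 12.85 and 12.41 in dysplasia and 12.50, 12.49 and 11.51 in SCC fibroblasts. Normal fibroblasts 3 was the lowest fibroblast sample for each of the 3, and the others lay near the epithelial readings of the same probe set. The SCC differences of 0.64, 0.47 and 0.20 were not called (adjusted p = 0.0841, 0.272 and 0.799). Of the mucosal pair, Krt4 read 13.67, 13.65 and 12.49 in normal, 13.53, 13.53 and 13.20 in dysplasia and 13.65, 13.52 and 11.81 in SCC fibroblasts. Krt13 read 13.65, 13.58 and 11.91 in normal, 13.61, 13.63 and 13.35 in dysplasia and 13.60, 13.64 and 11.44 in SCC fibroblasts. The third normal and SCC samples were low for both. Krt24 had 11.85, 11.42 and 8.59 in normal, 11.75, 11.70 and 10.96 in dysplasia and 9.96, 9.83 and 7.02 in SCC fibroblasts. Krt12 had 6.64, 6.59 and 6.69 in normal, 9.36, 9.41 and 6.97 in dysplasia and 8.64, 8.68 and 7.01 in SCC fibroblasts. Krt78 had 8.05, 7.30 and 6.51 in normal, 8.16, 7.31 and 9.21 in dysplasia and 7.96, 7.66 and 7.42 in SCC fibroblasts. For Krt24 and Krt12 the third sample was again low at dysplasia and SCC, whereas for Krt78 dysplasia fibroblasts 3 was the highest. Krt23 read 8.77, 9.02 and 6.82 in normal, 7.12, 7.53 and 7.44 in dysplasia and 7.18, 7.22 and 5.99 in SCC fibroblasts, and its SCC difference of -1.41 was not called (adjusted p = 0.11).

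**Figure D4:**
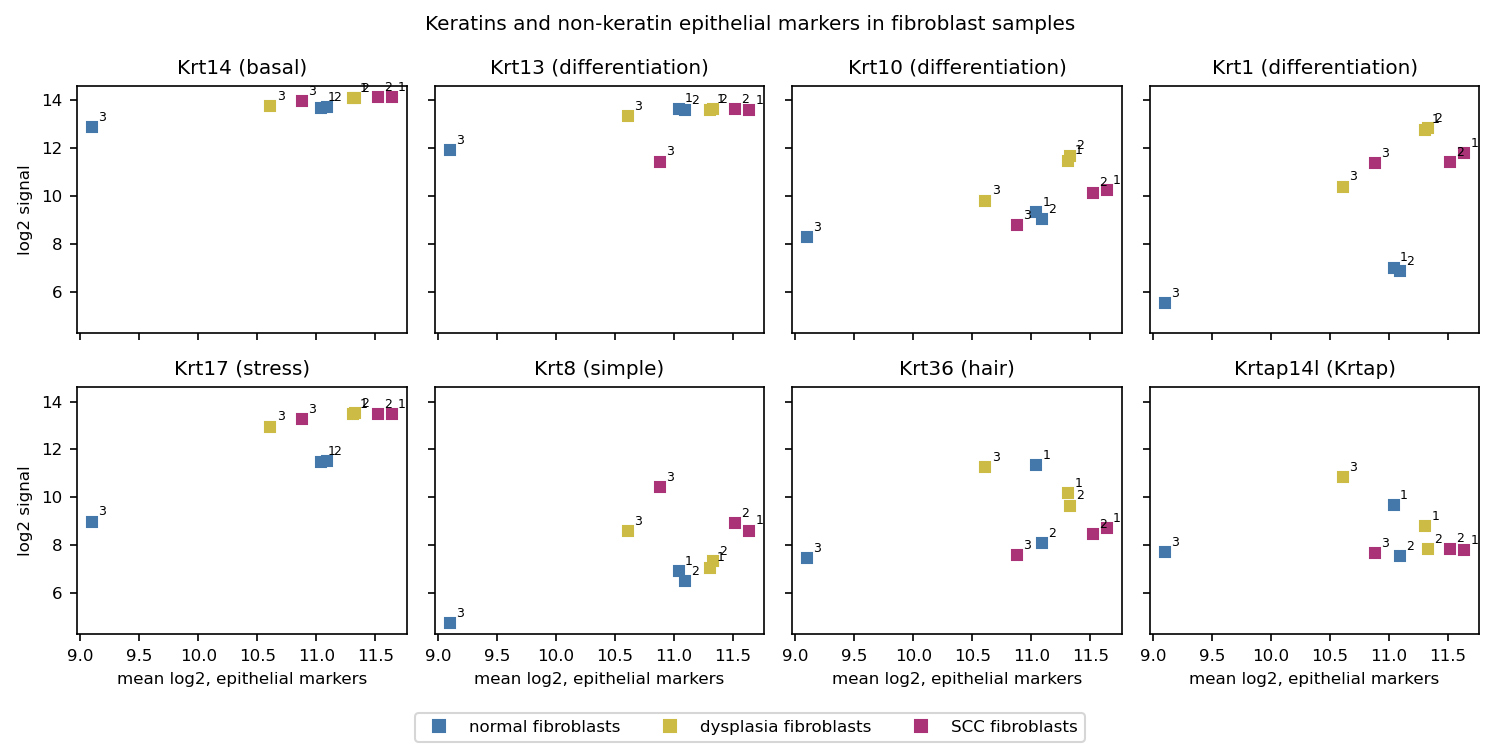
Log2 signal of 8 members (vertical axis) against the mean log2 signal of the 14 epithelial markers that are not keratins (horizontal axis) in the 9 fibroblast samples, numbered by replicate and coloured by stage. Normal fibroblasts 3 lies at the far left at 9.10, Krt1 separates normal from treated samples at like marker values, and Krt8 is highest in SCC fibroblasts 3.

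Since the epithelial markers differed between fibroblast samples, the same contrasts were computed after their mean was subtracted from each sample. In SCC against normal fibroblasts Krt1 then stood at 4.12 (adjusted p = 2.37e-06) and Krt8 at 2.32 (adjusted p = 0.0374), and both kept their calls. Krt7 at 1.25, Krt17 at 1.80 and Krt71 at 1.90 lost theirs (adjusted p = 0.22, 0.126 and 0.106). Krt19 at 2.32 (adjusted p = 0.038) passed, as did falls of Krt24 by 2.62 (adjusted p = 0.0122) and of Krt23 by 2.34 (adjusted p = 0.0349). In this setting 0.219% of all probe sets were higher and 1.64% lower, and the median change of all probe sets was -0.98 in place of -0.05. Without the third fibroblast sample of each stage, a setting chosen after the data were seen, 11 members were higher and 5 lower in SCC than in normal fibroblasts, against 20.1% and 22.2% of all probe sets, and Krt19 stood at 4.51 (adjusted p = 8.77e-05). In the same setting 10 were higher and 1 lower in dysplasia than in normal (12.5% and 14% of all probe sets), and 3 were higher and 5 lower in SCC than in dysplasia (8.81% and 7.36%). Aligning the arrays on spike-in controls raised the median change of all probe sets in SCC against normal fibroblasts from -0.05 to 0.56 and called 12 members higher and 0 lower (23.2% and 0.506% of all probe sets).

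In their deviations from the group mean, dysplasia and SCC fibroblasts of the same number correlated at 0.321 to 0.592. Those of unlike number correlated at -0.527 to 0.352, and no source states a pairing. With the number as a block, 2 members were lower in SCC than in dysplasia fibroblasts. They were Krt10 at -1.26 (adjusted p = 0.0321) and Krt24 at -2.53 (adjusted p = 0.0439). Over the array 2.02% of probe sets were higher and 0.709% lower with the block. Without it the adjusted p-values of Krt10 and Krt24 were 0.285 and 0.223.

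Whether a change differed between the cell types was tested as the epithelial minus the fibroblast change in the fit of all 18 arrays. For SCC against normal 7 of 29 members were lower on this scale (9.39% of all probe sets) and 0 higher (7.12%, and 0 at an unadjusted p under 0.05). They were Krt17, Krt19, Krt33b, Krt71, Krt86, Krtap1-1 and Krtap1-5. For Krt6c the call depends on the probe set. The brightest, which was kept, gave -0.79 (adjusted p = 0.0921), the dimmest -2.89 (adjusted p = 0.00482) and the third -0.16 (adjusted p = 0.704). The difference was -5.25 for Krtap1-1 (standard error 0.61, adjusted p = 9.28e-05), which changed by -5.57 in epithelia and by -0.32 in fibroblasts. In normal fibroblasts Krtap1-1 averaged 4.89 and Krtap1-5 averaged 4.91, with 16.4% and 16.7% of probe sets at or below. A fall as large as in the epithelia could not have been read from there. For these genes the test thus cannot decide whether the cell types differ. Krt71 went opposite ways, -1.39 against 2.84, with a difference of -4.23 (adjusted p = 0.000462). The epithelial call of Krt71 was kept with 6 of the 9 arrays left out in turn. Its fibroblast call was lost after centring on epithelial markers (1.90, adjusted p = 0.106), and the difference was not tested with that centring. Krt17 read higher in SCC in both, by 0.43 in epithelia from a start near the top of the scale and by 2.73 in fibroblasts, a difference of -2.31 (adjusted p = 0.0238). The epithelial call of Krt17 was kept with 1 of the 9 arrays left out in turn. Its fibroblast call was lost after centring on epithelial markers (1.80, adjusted p = 0.126). For dysplasia against normal 3 members were lower (2.2% of all probe sets), namely Krt71, Krtap1-1 and Krtap1-5. At this step 0 were higher (1.93%, and 0 at an unadjusted p under 0.05). The Krt6c probe sets gave -0.74 (adjusted p = 0.181) for the brightest, -2.69 (adjusted p = 0.0223) for the dimmest and -0.33 (adjusted p = 0.465) for the third. For SCC against dysplasia limma called 0 in either direction (0.0387% higher and 0.612% lower over the array), with 0 higher and 4 lower at an unadjusted p under 0.05.

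The layers were also compared within the later stages. In dysplasia 13 of 29 were higher in epithelia than in fibroblasts (27.4% of all probe sets) and 1 was lower (23%), namely Krt8 at -1.61 (adjusted p = 0.0343). In SCC 13 were higher (18.1%) and 2 lower (20.1%), Krt8 at -1.89 (adjusted p = 0.0206) and Krt19 at -2.09 (adjusted p = 0.0434), whose groups overlapped and whose call was kept with 4 of 18 arrays left out in turn. The difference of Krtap1-1 was 6.66 in normal, 3.63 in dysplasia and 1.41 in SCC tissue. That of Krt36 was 5.10, 3.37 and 4.74, and that of Krt78 was 6.17, 4.40 and 4.64. These 3 members were called at each stage. Krt5 stood at 0.14, -0.09 and -0.18 and was called at none.

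Genes that work with keratins were counted from fixed lists. Of 11 listed proteins that anchor, bundle or surround keratin filaments 10 were measured, and in SCC against normal epithelia 0 were higher and 3 lower (12.6% and 17.3% of all probe sets): the plakins periplakin (Ppl, -0.61, adjusted p = 0.00262) and Evpl (-0.56, adjusted p = 0.0178), parts of the cornified envelope, and trichohyalin (Tchh, -0.51, adjusted p = 0.0307), a matrix protein of the inner root sheath and of tongue papillae. At dysplasia only Ppl was lower, at -0.45. The transcription factor Trp63, which stood on the same list, was not called in SCC (0.26, adjusted p = 0.15). Of 14 other intermediate filament genes, all measured, 1 was higher in SCC epithelia, vimentin (Vim, 2.94, adjusted p = 0.0272), the filament of mesenchymal cells, and 2 were lower, Synm at -0.87 and Nefh at -1.38, both counts set against the same shares of the array. Vimentin is itself one of the 14 fibroblast markers. Of the other 13 markers 2 were higher in the same comparison, with a median of 2.39, and their part in the vimentin value was not tested.

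Of 16 regulators of keratin genes or of hair and stratified epithelium 12 were measured. In SCC against normal epithelia 0 were higher and 6 lower, against 12.6% and 17.3% of all probe sets. Among them were transcription factors known for hair shaft formation: Lef1 fell by 1.93 (standard error 0.41, adjusted p = 0.00893), Msx2 by 1.99 (adjusted p = 0.00465) and Dlx3 by 1.23 (adjusted p = 0.00179). Klf4, Tfap2c and Pax9 fell by 0.36, 0.41 and 0.51. At dysplasia 1 of the 12 was called, Dlx3 at -0.68 (adjusted p = 0.0391), and in fibroblasts none was called between stages. In normal tissue 9 of the 12 were higher in epithelia than in fibroblasts, where 35.7% of all probe sets were higher.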

How the data were processed

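Each of the 18 samples, epithelia or fibroblasts of the rat tongue, was hybridized to 1 Affymetrix rat expression array. The deposited values are linear probe set intensities that the authors summarized and normalized; RMA and Affymetrix Expression Console are the tools in the submitters' processing notes. Neither their versions nor the step from RMA to linear values are given in the sources used here. The intensities deposited by the authors have a lowest value of 1, and log2 of them was used as it stands. After removal of 57 controls from 31099 probe sets, 31042 were tested. A single gene is named by 20826 of them, several by 436 and no gene by 9780. Dim probe sets were kept, since no detection call is given.

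Stage contrasts were fitted with limma 3.58.1 in R 4.3.3 over the 9 arrays of each cell type, and contrasts between cell types and of their changes over all 18 arrays. The Benjamini-Hochberg adjustment ran over all 31042 probe sets, an adjusted p under 0.05 was a call, and every adjusted p printed is limma's unless named otherwise. The scripts were tested on simulated data. With 3 samples against 3, the smallest p of an exact permutation test is 0.1. The members and gene lists were chosen with earlier results of these data known. By the rule for named genes, the members of the filament pairs Krt5 with Krt14, Krt1 with Krt10, Krt4 with Krt13 and Krt8 with Krt18, all other simple, basal and stress keratins and every further member called between stages are given with all samples. Krt25, Krt79 and Krt90 fall outside it and are given by their range.

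Whether replicate numbers pair samples was checked on the correlation, over all probe sets, of each sample's deviation from its group mean. For dysplasia and SCC fibroblasts the same-number correlations were 0.321 to 0.592, above 0.1 for every pair, and those of unlike numbers -0.527 to 0.352. For the other stages and for epithelia at least 1 same-number pair was not above 0.1. The number was therefore used as a block beside the results of SCC against dysplasia fibroblasts, though no source states a pairing. The alternatives were quantile normalization, an alignment on spike-in controls, an offset of 16 before log2, only probe sets brighter than the median, other samples in the fit, other settings of limma, the block, the methods' t-test, other thresholds, the other probe sets of Krt6c, centring on epithelial markers and each array left out in turn.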

Additional observations from a re-analysis of the deposited data

Results flagged for a closer look

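The keratins singled out here are those whose change with stage differed between epithelia and fibroblasts in a direct test, the epithelial minus the fibroblast change in a limma fit of all 18 arrays. From normal to dysplasia this difference was -3.46 on the log2 scale for Krt71 (standard error 0.61, adjusted p = 0.00688), -3.03 for Krtap1-1 (adjusted p = 0.0137) and -3 for Krtap1-5 (adjusted p = 0.0086). In normal fibroblasts Krtap1-1 and Krtap1-5 averaged 4.89 and 4.91, which left little room for a fall. For Krt71 the epithelial change was -1.16 and the fibroblast change 2.31, and neither was called alone (adjusted p = 0.0846 and 0.0724).

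From normal to SCC the difference was -5.25 for Krtap1-1 (adjusted p = 9.28e-05), -5.10 for Krtap1-5 (adjusted p = 5.83e-05), -4.23 for Krt71 (adjusted p = 0.000462), -3.37 for Krt33b (adjusted p = 0.00155) and -2.81 for Krt86 (adjusted p = 0.00159). From their signals in normal fibroblasts, Krtap1-1 and Krtap1-5 could not have fallen as far as in the epithelia. For them the test cannot decide whether the cell types differ. Krt17 gave -2.31 (adjusted p = 0.0238), a call kept with 15 of the 18 arrays left out in turn. The fibroblast rises of Krt71 and Krt17 in SCC were not called after centring on epithelial markers (adjusted p = 0.106 and 0.126). The difference between cell types was not tested with that centring. Krt19 gave -3.42 (standard error 1.09, adjusted p = 0.0444), a call kept with 3 of the 18. Its fibroblast signals in SCC ran from 5.15 to 9.37. Krt6c is not listed because its brightest probe set was not called. Its dimmest gave -2.69 to dysplasia (adjusted p = 0.0223) and -2.89 to SCC (adjusted p = 0.00482).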

How the results depend on the processing

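The direction of no call was reversed by any alternative, and the counts of members called in SCC against normal epithelia (16) and between normal cell types (21) stayed within 1.5 times under each. The counts of the other comparisons moved as follows, and the causes were not tested. Percentages in brackets are the shares of the tested probe sets higher and lower in the same setting, where they were counted. From dysplasia to SCC epithelia, where Krt86 was called alone, 5 members were called after alignment on spike-in controls (0.058% and 0.0805%). Among probe sets brighter than the median (fewer probe sets tested) 5 were called (0.232% and 0.348%). With all 18 arrays in the fit 4 were called, and with trended and robust moderation 2. The replicate block gave 0 (0.00966% and 0%), the methods' t-test after adjustment 0 (0% and 0%), and an unadjusted p with a fold of 2 gave 7. From normal to dysplasia fibroblasts (1 called) the counts were 3 after spike-in alignment (0.206% and 0.0902%) and 5 with the block (2.35% and 2.32%). They were 4 with all 18 arrays, 0 by the t-test (0% and 0%) and 6 at an unadjusted p. From dysplasia to SCC fibroblasts (0 called) they were 8 after spike-in alignment (29.5% and 0.0387%), 2 with the block (2.02% and 0.709%) and 5 at an unadjusted p. From normal to SCC fibroblasts (5 called) they were 12 after spike-in alignment (23.2% and 0.506%) and 11 with all 18 arrays. The block gave 15 there, 10 higher and 5 lower (11.3% and 12.6%), and the t-test 3, 2 higher and 1 lower (1.92% and 0.928%). Between dysplasia epithelia and fibroblasts (14 called) spike-in alignment gave 26, all higher (78.2% and 6.83%). For the epithelial minus fibroblast change spike-in alignment gave 11 from dysplasia to SCC (0 called), all lower (0.0451% and 39.6%). From normal to SCC (7 called) it gave 13, all lower (1.8% and 21.9%), and the brighter probe sets gave 4 (12.1% and 13.9%). The block gave 1 for dysplasia to SCC (0% and 0.0451%), and unadjusted p-values gave 9 for normal to dysplasia (3 called) and 4 for dysplasia to SCC. Spike-in alignment shifted the median difference of all probe sets by 0.72 from dysplasia to SCC fibroblasts, by 0.61 from normal to SCC fibroblasts and by 0.86, 1.12 and 0.31 between the cell types in normal tissue, dysplasia and SCC.

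The share of all probe sets called was not counted with single arrays left out. The ranges that follow are thus not shown to be particular to the keratins. With each array left out in turn the counts of members called ran from 5 to 9 for normal to dysplasia epithelia (5 without dysplasia epithelia 3), 0 to 5 for dysplasia to SCC epithelia (5 without SCC epithelia 3, 3 without SCC epithelia 2 and 0 without each of the other arrays) and 13 to 15 for normal to SCC epithelia. In fibroblasts they ran from 0 to 4 for normal to dysplasia (4 without dysplasia fibroblasts 3, 2 without normal fibroblasts 3 and 0 without normal or dysplasia fibroblasts 1 or 2), 0 to 1 for dysplasia to SCC (1 without SCC fibroblasts 3) and 2 to 8 for normal to SCC (8 without dysplasia fibroblasts 3, 3 and 2 without SCC fibroblasts 1 and 2). Between cell types they ran from 16 to 22 in normal tissue, 11 to 18 in dysplasia and 10 to 18 in SCC. For the difference of the changes they ran from 3 to 6 for normal to dysplasia (6 without normal fibroblasts 1 or dysplasia fibroblasts 3, 5 without dysplasia fibroblasts 2), 0 to 2 for dysplasia to SCC (2 without dysplasia fibroblasts 3, 1 without SCC fibroblasts 3) and 5 to 10 for normal to SCC. Without the third fibroblast sample of every stage, a setting chosen after the data were seen, those 3 counts were 8, 5 and 13. Over all probe sets 5.38%, 0.892% and 12.1% were then higher, and 6.57%, 2.29% and 15.6% lower. Without normal and SCC epithelia 2 together, chosen in the same way, 3 members were called from dysplasia to SCC epithelia, and the share of all probe sets was not counted. Only for dysplasia and SCC fibroblasts was every same-number correlation above 0.1 (0.321 to 0.592). Samples of unlike number there reached 0.352, and the highest correlation was with the own number in 4 of 6 cases. No source states what a shared number marks in any comparison. For normal with dysplasia fibroblasts the highest correlation of an array was with its own number in 5 of 6 cases, and for normal with SCC fibroblasts in 5 of 6.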
